A study of Mus musculus with 5 samples.

Results

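The 9 genes described here encode the enzymes and receptors that 3 small molecules of a fibroblast conversion cocktail are known to inhibit: the class I histone deacetylases Hdac1, Hdac2, Hdac3 and Hdac8, the glycogen synthase kinases Gsk3a and Gsk3b, and the type I receptors Tgfbr1, Acvr1b and Acvr1c. They were read through the non-control probes of the array whose gene name equals 1 of these symbols. That rule took 17 of 55681 probes, and these 9 genes stand among 21983 genes named on the array. The rule matches names and uses no measured value, but the genes were picked with earlier results of these data known.

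Histone deacetylases remove acetyl groups from histone tails and work inside corepressor complexes, where they help to keep genes silent; valproic acid (VPA) inhibits the class I members. GSK3 kinases phosphorylate many proteins, among them beta-catenin, which is then degraded, and CHIR99021 blocks these kinases and so mimics a Wnt signal. Tgfbr1, Acvr1b and Acvr1c are the type I receptors for TGF-beta, activin and nodal ligands that phosphorylate Smad2 and Smad3, and Repsox inhibits this kinase activity.

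RNA of mouse cells was hybridised to 5 single-colour 60-mer arrays, 1 array per sample. Chemically induced neural progenitor cells (ciNPC), made from fibroblasts with chemicals under low oxygen, were measured at passage 13 (p13, 2 arrays) and at passage 5 (p5, 1 array). The control neural progenitor cells (NPC), taken from mouse brain, and the mouse embryonic fibroblasts (MEF) had 1 array each. The labels give no mouse strain, age or genotype, do not name the compounds and do not say whether any were in the medium when RNA was taken. No label ties the p13 arrays to separate cultures, so the p-values rest on a spread between samples that may be technical.

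All 3 ciNPC arrays shared 1 slide and the NPC and MEF arrays another, so slide and ciNPC cannot be told apart. Between 47.9% and 54.1% of spots on the ciNPC arrays, 55.2% on the NPC array and 57.6% on the MEF array were well above background as the scanner software marks them, and precision is limited by how few arrays there are. Array p13 replicate 2 stood apart in its spike-in slope (0.803, against 0.915 to 0.987 elsewhere), and without it the Acvr1b difference from MEF given below was 1.70. Of 13 neural progenitor markers, 13 were above background on each ciNPC array and on NPC, against 7 on MEF. Of 12 fibroblast markers, 12 were above background on each ciNPC array and on MEF, against 7 on NPC. The summed signal of the fibroblast markers, in units of each array's 75th percentile, was 189 to 260 on the ciNPC arrays, 2.86 on NPC and 1802 on MEF, and that of the progenitor markers was 411 to 517, 609 and 20.3 in that order of cells. The part of these marker differences in the results below was not tested. In bulk RNA, fewer cells of a type and less RNA per cell cannot be told apart.

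Against MEF, Acvr1b was higher in ciNPC, by 3.23-fold, and it was the only 1 of the 9 genes to pass the test. A probe passed at a limma adjusted p under 0.05 over all 35616 probes tested together with a difference of at least 2-fold, and "rose" and "fell" are used of such probes alone. Of the 17 probes, 15 entered the test because 1 or more of the 4 groups had them above background throughout, and all 9 genes kept at least 1 of them. Among these, 1 of 15 passed against MEF, or 6.67%, where 23.8% of all probes tested passed (12.5% higher and 11.3% lower). No probe of the 9 genes passed for ciNPC against NPC, where 2.78% of all probes did, and 0 of 15 had an unadjusted p under 0.05 in limma, where 13.5% of all probes had. Between p13 and p5 none passed either, where 0.831% of all probes did, although 5 of 15 had an unadjusted p under 0.05 in limma, where 18.7% of all probes had.

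The sizes of the differences are described over probes above background on all 5 arrays, which leaves out Acvr1c and the second Acvr1b probe. Of the 14 probes of these genes that remain, 13 lay within 2-fold between ciNPC and MEF, where 67.7% of the 22469 probes above background on all 5 arrays did. All 14 lay within 2-fold between ciNPC and NPC (95.3% of all such probes) and all 14 between p13 and p5 (97.8%). The median size of the log2 difference between ciNPC and MEF was 0.42 for the 14 probes and 0.67 for all such probes. Between ciNPC and NPC it was 0.20 for the 14 probes and 0.25 for all. Between p13 and p5 the order was the other way, with 0.27 for the 14 probes and 0.22 for all.

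**Figure D1:**
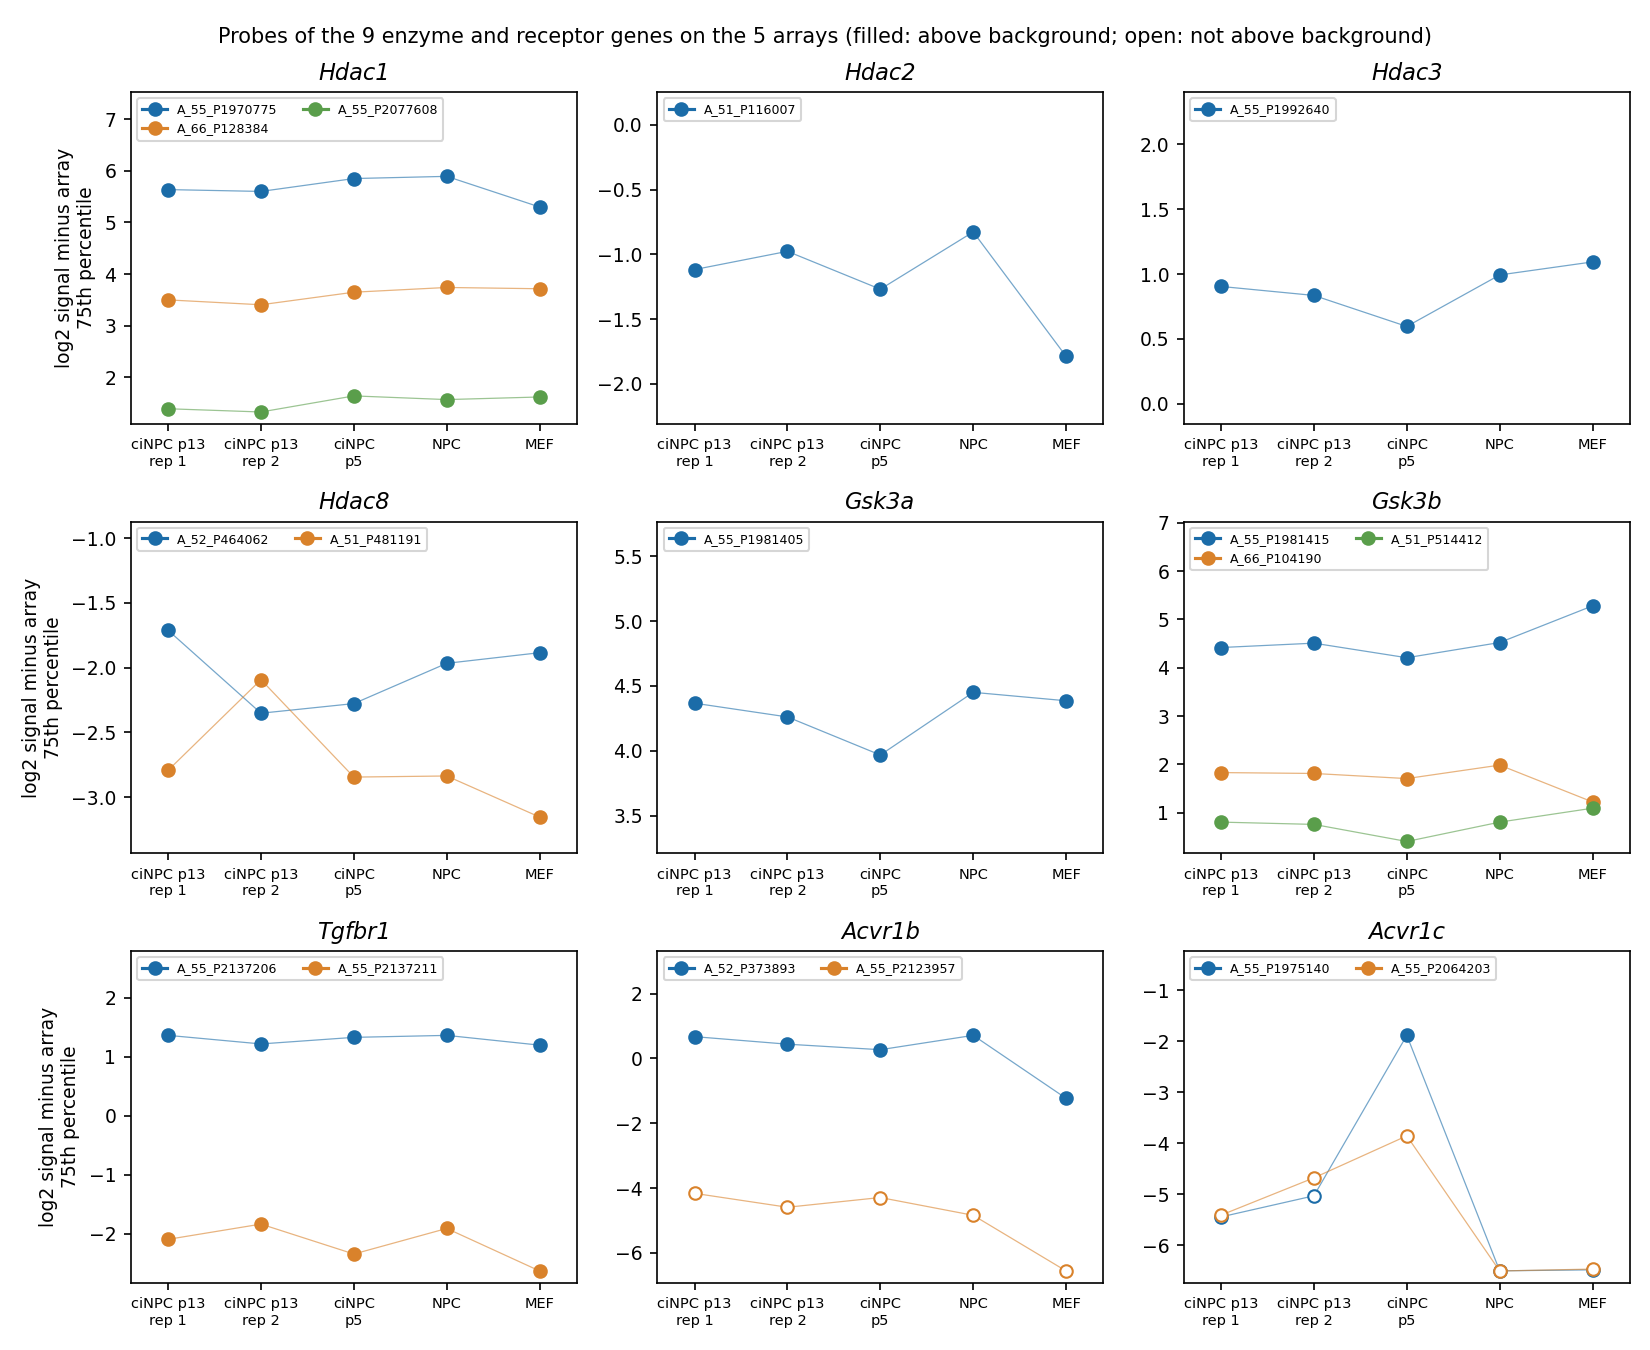
Level of each probe of the 9 genes on each array, as log2 of the processed signal minus the 75th percentile of its array; filled points were above background and open points were not, and lines only join the points of 1 probe. Acvr1b was at 0.27 to 0.67 on the ciNPC arrays, 0.71 on NPC and -1.23 on MEF, and 1 Acvr1c probe was above background on the p5 array alone.

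Hdac3 is the catalytic subunit of the NCoR complex. Its probe lies on chromosome 18 of mm9 at 38096655 to 38096714 on the minus strand. The log2 level (signal minus the array's 75th percentile, the scale of all levels here) was 0.90 and 0.83 on p13, 0.60 on p5, 0.99 on NPC and 1.09 on MEF. Every ciNPC array was under both NPC and MEF, yet by no more than 0.32 on average against MEF (log2 difference -0.32, SE 0.19, limma adjusted p = 0.257) and 0.21 against NPC (-0.21, SE 0.19).

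Hdac1 is a catalytic subunit of the Sin3, NuRD and CoREST corepressor complexes. Its 3 probes lie on chromosome 4 of mm9 on the minus strand, at 129193716 to 129193775 (A_55_P2077608), 129193527 to 129193586 (A_66_P128384) and 129193374 to 129193433 (A_55_P1970775), so that the first and the last of them start 342 bases apart. On the probe at the 3′ end, A_55_P1970775, the log2 level was 5.64 and 5.60 on the p13 arrays, 5.85 on p5, 5.89 on NPC and 5.30 on MEF. All 3 ciNPC arrays and NPC were above MEF, and the ciNPC average exceeded MEF by 0.40 (SE 0.14, 95% interval 0.05 to 0.74, limma adjusted p = 0.0751). The limma adjusted p of this probe was 0.0246 under quantile normalisation, where the difference was 0.69, 0.0237 with the percentile over detected probes (0.53) and 0.0192 without p5 (0.32), all under 2-fold. On A_66_P128384 the levels were 3.50 and 3.40 on p13, 3.65 on p5, 3.74 on NPC and 3.71 on MEF, and here the ciNPC arrays all lay under MEF. The log2 difference was -0.20 (SE 0.14, limma adjusted p = 0.335) and 0.02 under quantile normalisation. Without p5 it was -0.26 (limma adjusted p = 0.0372), opposite in sign to A_55_P1970775. A_55_P2077608 gave 1.39 and 1.33 on p13, 1.64 on p5, 1.57 on NPC and 1.62 on MEF, and the groups overlapped. The reference gene table lists a pseudogene, Hdac1-ps, so a part of the signal that a similar copy could give is uncertain.

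Hdac2, the close relative of Hdac1 in the same complexes, was read by 1 probe printed at 10 spots per array. The probe spans an intron on chromosome 10 of mm9 (36713455 to 36713589, plus strand), and its sequence is given because the spots of this 1 oligo allow the error within an array to be seen.
Hdac2 A_51_P116007: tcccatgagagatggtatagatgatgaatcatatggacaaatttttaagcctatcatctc
Its log2 level was -1.12 and -0.98 on p13, -1.27 on p5, -0.83 on NPC and -1.79 on MEF. MEF was the lowest array and NPC the highest, and the SD between the spots of an array was 0.048 to 0.13. The ciNPC average was 0.67 above MEF (SE 0.29, 95% interval -0.03 to 1.36, limma adjusted p = 0.128), so the arrays did not overlap but the difference did not pass. NPC lay 0.96 above MEF, with 1 array each and no test.

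Hdac8, a class I deacetylase that also acts on cohesin, was measured by a pair of probes on the X chromosome of mm9 that did not follow each other. A_51_P481191 lies at 99700320 to 99700379 and A_52_P464062, which spans an intron, at 99503070 to 99597969, both on the minus strand. Their sequences are given because the pair reads different stretches of 1 gene.
Hdac8 A_51_P481191: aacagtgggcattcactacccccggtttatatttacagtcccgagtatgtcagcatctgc
Hdac8 A_52_P464062: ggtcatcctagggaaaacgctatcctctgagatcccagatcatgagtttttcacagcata
The log2 level of A_52_P464062 was -1.71 and -2.35 on p13, -2.28 on p5, -1.97 on NPC and -1.88 on MEF. That of A_51_P481191 was -2.79 and -2.09 on p13, -2.84 on p5, -2.84 on NPC and -3.15 on MEF. Between the p13 arrays the first probe differed by 0.64 and the second by -0.70 (replicate 1 minus replicate 2), which is larger than any difference between cell types on the first probe. No order of the cell types could be read from Hdac8: against MEF the 95% intervals were -1.25 to 0.79 on A_52_P464062 and -0.72 to 1.87 on A_51_P481191.

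**Figure D2:**
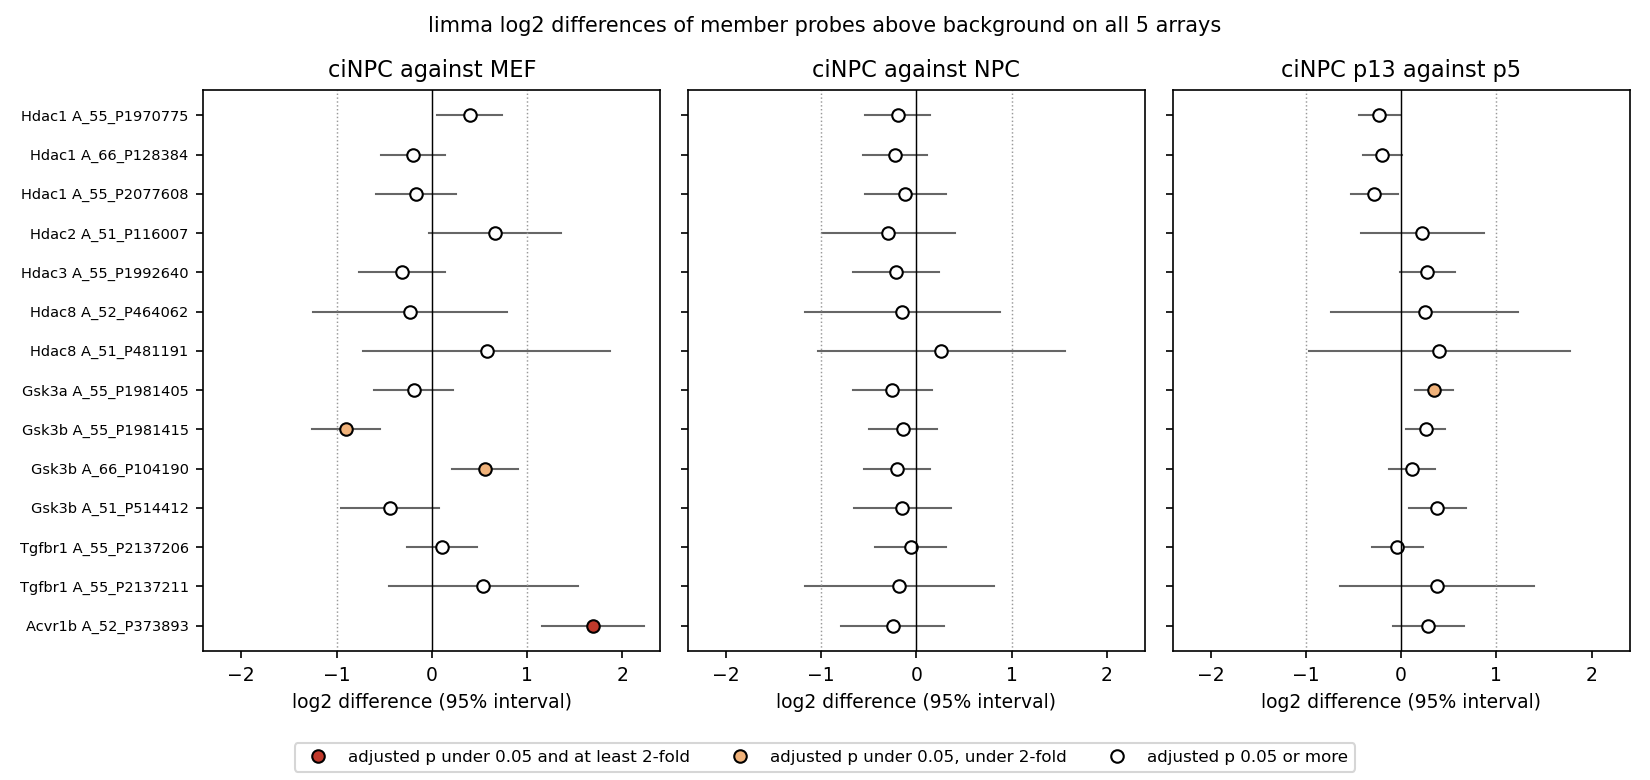
limma log2 differences (points) with 95% intervals (bars) of the 14 probes above background on all 5 arrays; dotted lines mark 2-fold in either direction. Acvr1b alone passed against MEF (1.69), the Gsk3b probes stood on both sides of 0, and 13 of the 14 differences from NPC were under 0 (under quantile normalisation, which turned some signs, 12 of the 15 probes tested).

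Gsk3a was the member whose level differed with passage at an adjusted p under 0.05. Its probe lies on chromosome 7 of mm9 at 26013279 to 26013338 on the minus strand. The log2 level was 4.37 and 4.26 on p13, 3.97 on p5, 4.45 on NPC and 4.39 on MEF. Both p13 arrays were above p5, by 0.35 on average (SE 0.10, 95% interval 0.15 to 0.55, limma adjusted p = 0.0312), which is under 2-fold and so did not pass. At an adjusted p under 0.05 with any fold, 6.15% of all probes were called in that comparison. The median of all probes stood at 0.12 in the same direction, p5 has 1 array, and the limma adjusted p was 0.0556 with 1 probe per gene, 0.095 over probes above background on all 5 arrays, 0.134 with normexp background, 0.141 under quantile normalisation and 0.681 without the intensity trend. Against MEF the difference was -0.19 (SE 0.17, but 0.02 under quantile normalisation) and against NPC -0.25 (SE 0.17).

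Gsk3b, the kinase that Axin and Apc hold beside beta-catenin, was read by 3 probes on the plus strand of chromosome 16 of mm9, and their differences from MEF did not share a sign. In 5′ to 3′ order they are A_51_P514412, which spans an intron at 38187987 to 38191632, A_55_P1981415 at 38241177 to 38241236 and A_66_P104190 at 38246094 to 38246153. The sequence of the first of these is shown, as the probe that reads across an intron upstream of the other two.
Gsk3b A_51_P514412: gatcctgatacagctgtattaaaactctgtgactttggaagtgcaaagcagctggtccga
Its log2 level was 0.80 and 0.76 on p13, 0.40 on p5, 0.80 on NPC and 1.09 on MEF, and the ciNPC average differed from MEF by -0.44 (SE 0.21, limma adjusted p = 0.169). On A_55_P1981415 the level was 4.42 and 4.51 on p13, 4.21 on p5, 4.52 on NPC and 5.28 on MEF. MEF stood above the other 4 arrays, and the ciNPC difference from MEF was -0.90 (SE 0.15, 95% interval -1.26 to -0.54, limma adjusted p = 0.0041), short of 2-fold. On A_66_P104190 the level was 1.83 and 1.81 on p13, 1.70 on p5, 1.98 on NPC and 1.22 on MEF. Here MEF stood below the other 4 arrays, with a ciNPC difference of 0.56 (SE 0.14, 95% interval 0.21 to 0.91, limma adjusted p = 0.0237), again under 2-fold. Its limma adjusted p was 0.125 without p13 replicate 1, 0.0742 without p13 replicate 2 and 0.0785 with normexp background. At an adjusted p under 0.05 with any fold, 35.2% of all probes were called in this comparison.

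The unequal change of the Gsk3b probes was then tested as a ratio within each array, a test added after the probes were seen to differ. The log2 ratio of A_66_P104190 to A_55_P1981415 was -2.59 and -2.70 on p13, -2.50 on p5, -2.54 on NPC and -4.06 on MEF. MEF stood apart from the other arrays by more than the spread of the ciNPC arrays. The ratio was higher in ciNPC than in MEF by 1.46 (SE 0.14, 95% interval 1.07 to 1.86, limma adjusted p = 0.0114 over 3855 probe ratios), and it differed from NPC by -0.06 (SE 0.14, limma adjusted p = 0.965). Of all 3855 ratios, 17.8% passed against MEF and 0.00% against NPC. Without p13 replicate 1 the change of 1.46 had an adjusted p of 0.0842 and did not pass. The probes lie 4917 bases apart, and which transcript ends each reads was not tested.

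The Hdac1 probes also differed unequally in this added test. The ratio of A_66_P128384 to A_55_P1970775 was -2.14 and -2.20 on p13, -2.20 on p5, -2.15 on NPC and -1.58 on MEF. The ciNPC difference from MEF was -0.59 (SE 0.12, limma adjusted p = 0.0350), which is under 2-fold and so did not pass, and it was -0.03 (SE 0.12) from NPC. The ratio of A_55_P2077608 to A_55_P1970775 differed from MEF by -0.56 (SE 0.12, limma adjusted p = 0.0388). For Gsk3b A_51_P514412 to A_55_P1981415 the difference was 0.47 (SE 0.14, limma adjusted p = 0.0856). The Hdac8 ratio differed by 0.81 (SE 0.57, limma adjusted p = 0.368) and the Tgfbr1 ratio by 0.43 (SE 0.28, limma adjusted p = 0.335). None of these passed.

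**Figure D3:**
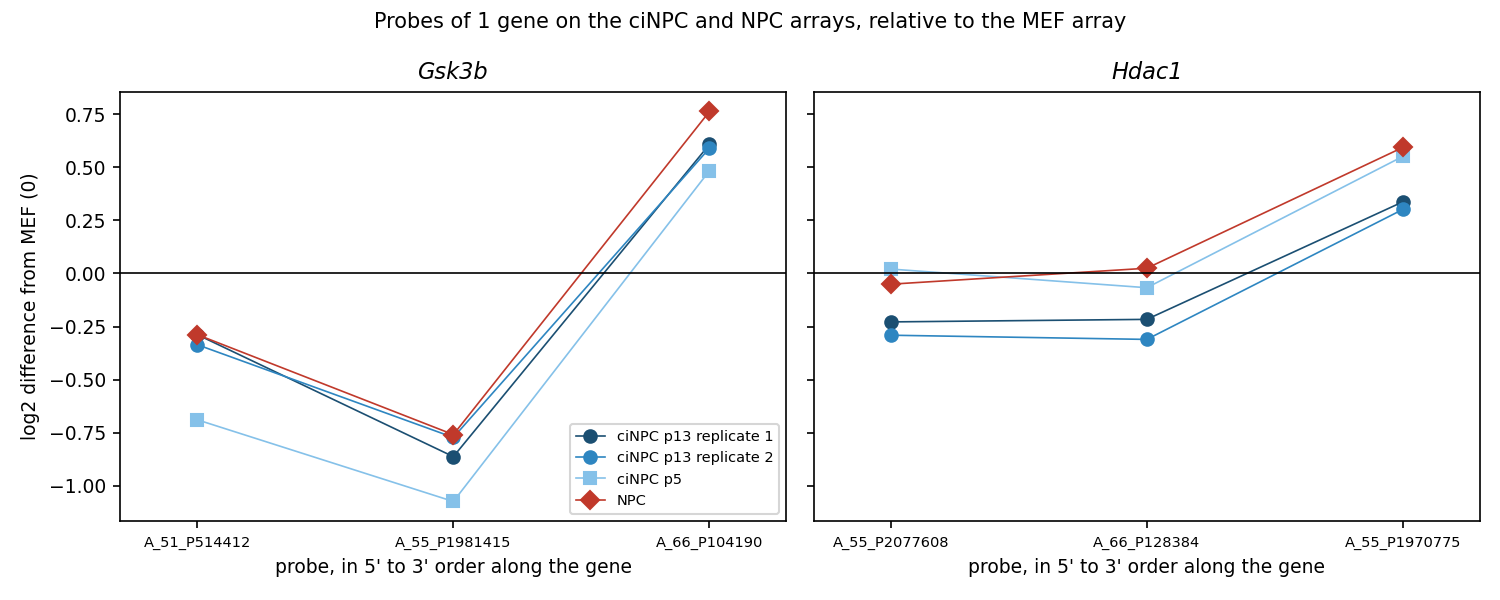
Difference of each ciNPC and NPC array from the MEF array (log2) for the 3 Gsk3b and the 3 Hdac1 probes, set out in 5′ to 3′ order with even spacing. For Gsk3b the 4 arrays lie under 0 on the first and second probe and over 0 on the third; for Hdac1 the 4 arrays lie over 0 on the third probe.

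Acvr1b, the type I receptor for activin and nodal, was the member that rose. Its brighter probe, A_52_P373893, lies on chromosome 15 of mm9 at 101043956 to 101044015 on the plus strand. The log2 level was 0.67 and 0.44 on p13, 0.27 on p5, 0.71 on NPC and -1.23 on MEF. The 3 ciNPC arrays and NPC lay above MEF without overlap, and the ciNPC arrays lay just under NPC. The ciNPC average was 0.46 ± 0.20 (SD, n = 3) against -1.23 on MEF, a log2 difference of 1.69 (SE 0.23, 95% interval 1.15 to 2.23, limma adjusted p = 0.0017), or 3.23-fold. Against NPC it was -0.25 (SE 0.23, 95% interval -0.79 to 0.29). That interval lay within 2-fold but holds no spread between NPC samples, so it does not bound a difference between the cell types. On a line with MEF at 0 and NPC at 1, the ciNPC average stood at 0.871. Between p13 and p5 the difference was 0.29 (SE 0.18, limma adjusted p = 0.442). The second Acvr1b probe, A_55_P2123957 at 101042850 to 101042909, was not above background on any array, with measured log2 values of -4.16 and -4.59 on p13, -4.29 on p5, -4.84 on NPC and -6.56 on MEF, so the call rests on 1 probe.

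Tgfbr1, the type I receptor for TGF-beta, did not pass in any comparison. Its probe A_55_P2137206 (chromosome 4 of mm9, 47427736 to 47427795, plus strand) was at 1.37 and 1.22 on p13, 1.33 on p5, 1.37 on NPC and 1.20 on MEF. The 5 arrays spanned 0.17 on the log2 scale, the smallest range of the 17 probes, and the ciNPC difference from MEF was 0.11 with a 95% interval of -0.27 to 0.48. A_55_P2137211 at 47424946 to 47425005, which lies 2790 bases upstream, was at -2.09 and -1.83 on p13, -2.34 on p5, -1.91 on NPC and -2.63 on MEF. MEF was lowest on both probes, and the difference on the second was 0.54 (SE 0.42, limma adjusted p = 0.376).

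Acvr1c, the type I receptor that nodal and activin B can use, was above background on a single array. Its probe A_55_P1975140 (chromosome 2 of mm9, 58124244 to 58124303, minus strand) gave measured log2 values of -5.45 and -5.03 on p13, -1.89 on p5, -6.50 on NPC and -6.48 on MEF. Each other array was given the lowest signal called above background there, or the probe's own if higher. The p13 arrays were then averaged on the log2 scale. Acvr1c on p5 was at least 2.93-fold higher than that p13 average, a bound that need not hold for each p13 array. It was at least 5.84-fold higher than NPC and at least 6.65-fold higher than MEF. The test did not call it, with a limma adjusted p of 0.360 for p13 against p5 and 0.341 for ciNPC against MEF. The second probe, A_55_P2064203 at 58119888 to 58119947, was not above background on any array, with -5.41 and -4.68 on p13, -3.86 on p5, -6.51 on NPC and -6.47 on MEF. The bounds above rest on 1 probe and 1 array. That probe entered the test through p5 alone, the array on which it was bright, so the filter set the direction of the bounds.

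The promoters of the receptors are shown because 1 receptor rose, 1 did not pass on either probe and 1 was mostly below background. Each runs from 250 bases before to 50 bases after a RefSeq gene start on GRCm38.p6, 5′ to 3′ on the strand of the gene, with every CG in capitals. RefSeq gave a pair of starts for Tgfbr1 and for Acvr1c, and the upstream one is shown. These coordinates are on another build than the probes.
Acvr1b promoter, chr15:101173822-101174121, plus strand: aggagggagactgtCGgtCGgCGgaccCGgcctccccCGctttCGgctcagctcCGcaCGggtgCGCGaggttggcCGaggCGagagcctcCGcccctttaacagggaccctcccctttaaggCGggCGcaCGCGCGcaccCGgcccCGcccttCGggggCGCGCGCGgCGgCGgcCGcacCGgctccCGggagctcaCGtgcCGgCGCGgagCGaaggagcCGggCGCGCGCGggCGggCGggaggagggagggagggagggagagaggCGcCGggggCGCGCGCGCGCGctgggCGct
Tgfbr1 promoter, chr4:47352972-47353271, plus strand: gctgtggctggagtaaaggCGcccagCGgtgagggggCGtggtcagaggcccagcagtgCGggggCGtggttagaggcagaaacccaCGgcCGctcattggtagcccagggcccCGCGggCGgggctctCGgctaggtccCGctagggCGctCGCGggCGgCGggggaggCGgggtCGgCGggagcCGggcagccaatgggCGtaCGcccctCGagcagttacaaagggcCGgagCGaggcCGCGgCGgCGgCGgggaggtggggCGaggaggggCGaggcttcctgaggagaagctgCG
Acvr1c promoter, chr2:58357709-58358008, minus strand: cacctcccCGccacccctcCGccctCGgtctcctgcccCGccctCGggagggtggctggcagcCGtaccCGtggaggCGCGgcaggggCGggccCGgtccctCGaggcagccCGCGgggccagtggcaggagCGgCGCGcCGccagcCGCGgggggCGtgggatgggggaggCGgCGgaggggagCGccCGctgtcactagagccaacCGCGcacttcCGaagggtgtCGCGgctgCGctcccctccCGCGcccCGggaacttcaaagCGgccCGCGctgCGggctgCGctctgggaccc
The Acvr1b window held 51 CG and 79.7% G or C, the Tgfbr1 window 34 CG and 74.7%, and the Acvr1c window 39 CG and 79.0%, where the median of 32851 RefSeq promoters of that length was 7 CG and 52.7%. The windows of all 3 receptors thus lay above that median. The downstream starts held 3 CG for Tgfbr1 and 2 for Acvr1c. RefSeq promoters were matched for 7 of the 9 genes, with 9 windows in all, and not for Hdac1 and Hdac3. The Hdac2 window held 36 CG, that of Gsk3b 21, that of Gsk3a 14 and that of Hdac8 6. The motif GGGCGG, searched on both strands, was present in 5 of the 9 windows and in 35.7% of all promoters. The motif TATAAA, searched on both strands, was present in 2 of 9 (Hdac8 and Gsk3b) and in 13.6% of all. A match describes the letters and is not a site in use.

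Between NPC and MEF, which have 1 array each and so no test, Acvr1b was the only member at least 2-fold apart, at 1.94 on the log2 scale or 3.85-fold higher in NPC. In that comparison 38.9% of all probes were at least 2-fold apart, and between the p13 arrays 6.51% were. Hdac2 (0.96), Gsk3b A_66_P104190 (0.76), Tgfbr1 A_55_P2137211 (0.72) and Hdac1 A_55_P1970775 (0.59) were higher in NPC than in MEF by less than 2-fold, and Gsk3b A_55_P1981415 was at -0.76.

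Against NPC, 13 of the 15 probes tested had a negative difference, with a median of -0.18 where all probes had -0.12. Under quantile normalisation 12 of 15 were negative, with a median of -0.07 where all probes had -0.13. The order of members and all probes thus turned with the scaling. All these differences are taken from the same NPC array. The exceptions were Hdac8 A_51_P481191 (0.26, SE 0.54) and Acvr1c. The intervals of 11 probes, those other than Hdac8, the dimmer Tgfbr1 probe and Acvr1c, lay within 2-fold in both directions. These intervals rest on the spread of the ciNPC arrays, with 1 NPC array on another slide. They hold no spread between NPC samples and so do not bound a difference between the cell types.

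The genes around the enzymes were read from lists by 1 probe per gene, the probe with the highest mean. Against MEF, 29.5% of all 16231 genes passed, 14.8% higher and 14.8% lower, with a median log2 difference of -0.09. Of 7 other histone deacetylases, 6 were tested, with 1 higher and 1 lower and a median of -0.09; Hdac11 was not tested. Hdac9, a class IIa deacetylase, was at -1.39 and -1.60 on p13, -0.66 on p5, -0.82 on NPC and -4.13 on MEF, and rose by 2.92 against MEF (SE 0.45, limma adjusted p = 0.0031), or by 1.51 with normexp background. Hdac4, of the same class, was at 0.64 and 0.44 on p13, 0.55 on p5, 0.85 on NPC and 1.96 on MEF, and fell by 1.41 (log2 difference -1.41, SE 0.17). On both genes the ciNPC arrays were nearer to NPC than to MEF. Against NPC 0 of the 6 passed in limma, with 1 at an unadjusted p under 0.05, where 18.0% of all genes had one.

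Among 25 partners of class I deacetylases in their corepressor complexes, 2 rose and 5 fell against MEF, and the list median was -0.47. Chd3, a remodelling ATPase of the NuRD complex, was at 2.85 and 2.64 on p13, 3.16 on p5, 1.66 on NPC and 6.27 on MEF. It fell by 3.39 against MEF (log2 difference -3.39, SE 0.21), and it was the only partner called against NPC, at 1.22 (SE 0.21, limma adjusted p = 0.0280), where 4.33% of all genes passed. Among those that fell as well were the CoREST subunit Rcor3 (-1.35), the NuRD subunit Mta3 (-1.34) and Tbl1x of the NCoR complex (-1.29), as log2 differences. Sap30, a subunit of the Sin3 complex, rose by 1.86 and Tbl1xr1, a subunit of the NCoR complex, by 1.57. Tbl1x and Tbl1xr1, which are close relatives, thus had calls of opposite sign. Under quantile normalisation the Chd3 difference from NPC (1.34) did not pass.

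Among 20 partners and regulators of GSK3, 3 rose and 3 fell against MEF, with a median of -0.01, and 0 passed against NPC in limma, where 2 had an unadjusted p under 0.05 (18.0% of all genes). Frat1, which binds GSK3 and keeps it from Axin, was at 0.83 and 0.83 on p13, 0.04 on p5, 1.38 on NPC and -1.88 on MEF and rose by 2.44 (SE 0.34, limma adjusted p = 0.0020). Apc, a scaffold of the beta-catenin destruction complex, rose by 1.84, and Axin2, a scaffold that beta-catenin itself induces, was at least 3.56-fold higher than in MEF, where it was not above background. Axin1, the constitutive scaffold (-1.14), Dvl3, which relays Wnt signals from the membrane (-1.67), and Gskip, a GSK3-binding protein (-1.03), fell. Beta-catenin itself, Ctnnb1, differed by 0.62 (SE 0.12), under 2-fold. The median is the same with Axin2 at its bound. The Axin2 call was lost without p13 replicate 1 (2.68, limma adjusted p = 0.103), with no filter on dim probes (2.69, 0.0615) and with normexp background (1.04, 0.105). The Gskip call was lost without p13 replicate 2 (-0.995), with the percentile over detected probes (-0.90) and with normexp background (-0.86), each short of 2-fold.

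Of 12 other receptors of the TGF-beta family, 1 rose and 6 fell against MEF, and the list median was -0.98. Acvr2b, a type II receptor that pairs with Acvr1b for activin, was at 3.04 and 3.23 on p13, 2.94 on p5, 3.53 on NPC and 0.56 on MEF. It rose by 2.51 against MEF (SE 0.16, limma adjusted p = 8.31e-05), and as with Acvr1b the ciNPC arrays lay between NPC and MEF and closer to NPC. Acvr2a, the other activin type II receptor, was at -1.58 and -1.94 on p13, -1.34 on p5, -1.27 on NPC and -0.15 on MEF and fell by 1.46 (SE 0.34, limma adjusted p = 0.0158). Acvrl1, a type I receptor best known from endothelium, fell (-3.78) together with Eng, its co-receptor (-2.39). Of 4 endothelial markers, 2 were above background on every array and Cdh5 and Tek on none, and their summed signal was 4.47 to 6.95 on the ciNPC arrays, 6.55 on NPC and 16.8 on MEF; its part in these differences was not tested. Acvr1, a type I receptor for BMP ligands (-1.20), Tgfbr2, the type II partner of Tgfbr1 (-1.04), and the co-receptor Tgfbr3 (-1.02) fell by less. The 2 last calls were lost without p13 replicate 1 (log2 differences of -0.99 and -1.02), which left 4 receptors lower, and that of Tgfbr3 was also lost without p13 replicate 2 (-0.88). Against NPC 0 of 12 passed in limma, while 5 had an unadjusted p under 0.05 (18.0% of all genes), and Tgfbr3 (1.61, SE 0.31) had an adjusted p of 0.0516. Tgfbr3 passed against NPC with the percentile over detected probes, with normexp background, with no filter on dim probes and with 1 probe per gene. It also passed over probes above background on all 5 arrays and with any ciNPC array left out. It did not pass under quantile normalisation, in the deposited table or without the trend. Against MEF, quantile normalisation left 3 receptors lower, and Tgfbr2 (-0.83), Acvr2a (-1.59) and Tgfbr3 (-1.06) did not pass there.

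Of 14 Smads and inhibitors of the pathway, 13 were tested, and Bambi was not. Against MEF 0 rose and 4 fell, with a median of -0.80, namely Pmepa1 (-3.20), Smad7 (-2.81), Skil (-2.44) and Smad6 (-1.86). Smad6 and Smad7 are inhibitory Smads, Pmepa1 withholds Smad2 and Smad3 from the receptor, and Skil is a corepressor of Smads. Against NPC 4 of 13 were higher, where 4.29% of all genes were, and 0 lower, with a median of 0.22 where all genes had -0.14. Smad7 was at least 22.3-fold and Smad6 at least 12.6-fold higher than in NPC, where neither was above background (7.41-fold for Smad6 and 6.99-fold for Smad7 as fitted with normexp background), while Fst, which binds and neutralises activin, rose by 3.90 (SE 0.29) and Pmepa1 by 1.61 (SE 0.18). The ciNPC arrays thus lay between NPC and MEF on Smad6, Smad7 and Pmepa1. The receptor Smads were under 2-fold against MEF, with Smad2 at 0.94 (SE 0.17) and Smad3 at -0.89 (SE 0.16).

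**Figure D4:**
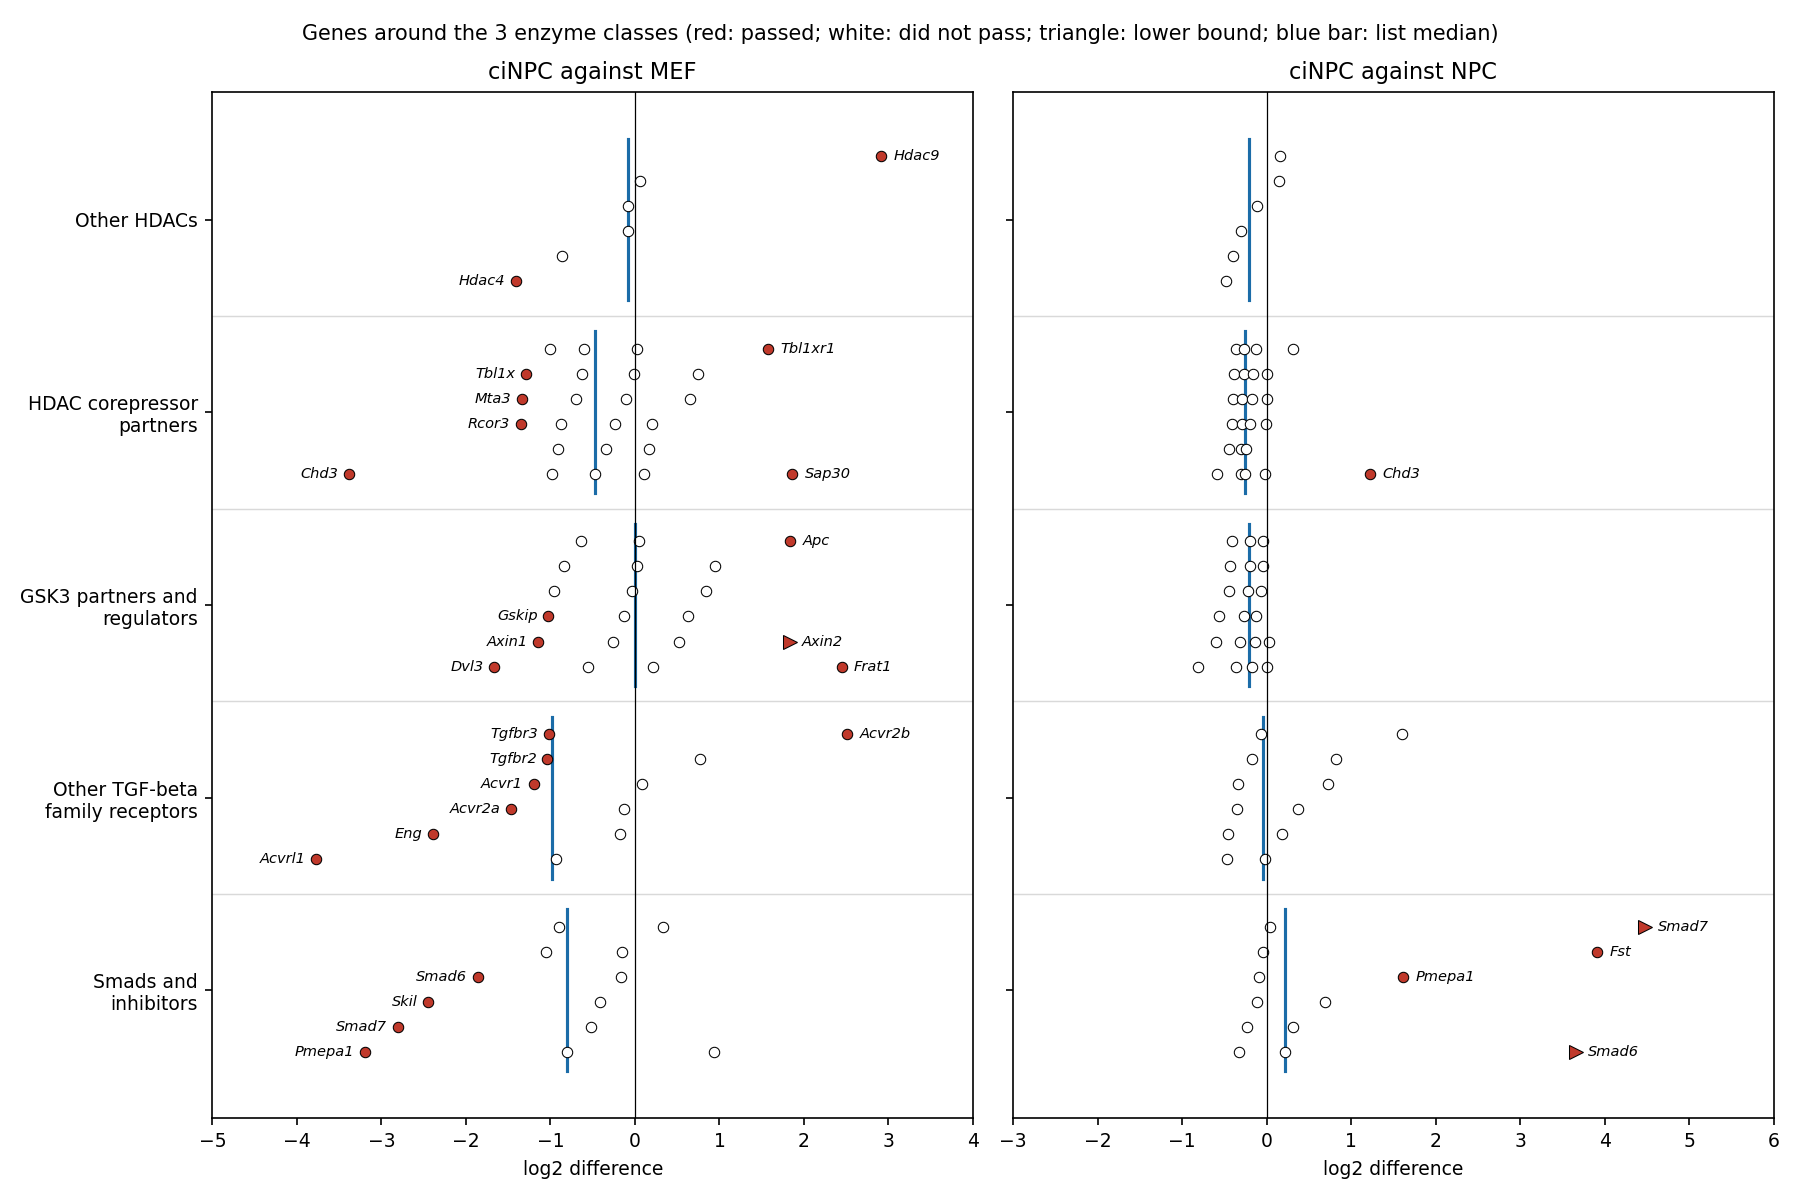
Log2 difference of the genes tested in 5 lists around the enzymes (1 corepressor partner is not drawn but counts in its list's median), for ciNPC against MEF and for ciNPC against NPC, with 1 point per gene (height within a list has no meaning) and triangles at the lower bound where the other cell type was not above background. Against MEF 6 other receptors fell and Acvr2b rose; against NPC the calls were Chd3 and 4 inhibitors of the pathway.

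Of 12 genes induced downstream of these enzymes or by their inhibition, 3 rose and 5 fell against MEF, where 14.8% of all genes passed in each direction. The list median was -0.86. Axin2, Tcf7 (1.71, SE 0.40) and H1f0 (1.80, SE 0.57) rose, and those that fell included Tgfbi (-3.55), Lef1 (-2.63), Ccn2 (-1.62) and Notum (-1.11). Tcf7 and Lef1, both transcription factors that bind beta-catenin, thus had calls of opposite sign. H1f0 was above background on 4 of the 5 arrays, p13 replicate 2 being the exception, and its call was lost without p5 (1.53) and without p13 replicate 1 (1.79). With normexp background Tcf7 (0.99), H1f0 (0.84) and Axin2 did not pass. Against NPC 3 of 12 were higher, where 4.29% of all genes were, and 0 lower, with a median of -0.02 where all genes had -0.14. Among those higher were Ccn2, which rose by 7.52 (6.88 with normexp background), and Tgfbi, which rose by 2.20. Under quantile normalisation the calls of Tcf7 (1.46), H1f0 (1.28), Ccn2 (-1.12) and Notum (-0.98) against MEF were lost. Between p13 and p5, 0 of the 88 tests in the 6 lists passed in limma, where 0.690% of all genes did. An unadjusted p under 0.05 was found for 27, where 23.1% of all genes had one. Axin2 stands in a pair of lists. With no limit on the fold, the limma adjusted p was under 0.05 for 1 other histone deacetylase and 3 GSK3 partners, all higher in p13. It was so for 2 corepressor partners and 2 Smads or inhibitors, all lower. It was so as well for 1 downstream gene higher and 3 lower, and for 0 other receptors. Of all probes 6.15% had one. Ccn2 (-0.94, SE 0.10), Fst (-0.70, SE 0.11), Dvl3 (0.74, SE 0.10) and Frat1 (0.79, SE 0.17) were among them.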

How the data were processed

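The labels give the cell type and passage of each of the 5 arrays, 1 per sample. Signals were extracted with Agilent Feature Extraction 10.7.1.1, per the submitters' processing notes, on a design annotated on mm9, per the file headers. The deposited array files hold the processed signal as an intensity per spot, background-subtracted, with no scaling between arrays. A deposited table of log2 values served as an alternative. Each processed intensity was put on a log2 scale and the array's 75th percentile subtracted, and spots of a probe were averaged without outliers. A probe was tested if 1 or more of the 4 groups had it above background on all arrays. In R 4.3.3, limma 3.58.1 (lmFit and trended eBayes) tested 35616 probes with Benjamini-Hochberg adjustment. The probe ratios were fitted apart, without the trend, from probes above background on all 5 arrays. ciNPC against MEF and against NPC shared 1 fit with 2 residual degrees of freedom, in which the lone NPC and MEF arrays were assumed to vary like ciNPC; p13 against p5 had 1, and NPC against MEF no test. These comparisons share arrays. The fits were checked on simulated data. All probes of the 9 genes are named, and by rule up to the 6 passing genes per list and comparison with the largest differences. Tbl1x, Tgfbr3, Notum, Ctnnb1, Smad2 and Smad3 fall outside that rule and were named after their values were seen. So do list genes named only for p13 against p5 or for a call gained under an alternative. Other genes use their brightest probe. Members and lists were chosen with earlier results of these data known. RefSeq (GRCm38.p6) gave promoters and current names. Alternatives covered scaling, background, filter, probe choice, fold limit, trend and each ciNPC array left out. Exon annotation of mm9 was not used here. Some list genes are counted but not reported here by name.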

Additional observations from a re-analysis of the deposited data

How the results depend on the processing

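The number of member probes that passed was 1 for ciNPC against MEF, 0 for ciNPC against NPC, 0 for p13 against p5 and 1 (at least 2-fold apart) for NPC against MEF, and it kept these values under each alternative that could be run but one. With no limit on the fold, 3 passed against MEF (Acvr1b and a pair of Gsk3b probes) and 1 between p13 and p5 (Gsk3a). Acvr1b ranged from 1.45 (normexp background) to 1.82 (percentile over detected probes) against MEF, with adjusted p up to 0.0342 without the intensity trend, and was 1.59 to 1.79 with 1 ciNPC array left out. Against MEF, the Gsk3b difference of A_55_P1981415 was -0.63 under quantile normalisation and that of A_66_P104190 was 0.66. Without the trend both had adjusted p over 0.05 (0.073 and 0.119). No called difference changed its sign. Over single probes and genes, 1006 values kept their call or size under an alternative, 48 lost a call, 3 gained one and 7 without a test moved. List genes entered this count only if they passed in the main fit, so calls that others gained are not in it. Against MEF, Mta2, Bmpr2 and Lrp6 gained a call with normexp background and Smad2 with the percentile over detected probes, among others. Tgfbr3 gained a call against NPC, as given above, and Ccn2 between p13 and p5 with normexp background. Among the list genes, the calls of Acvr2a, Ccn2, Dvl3, H1f0, Mta3, Rcor3 and Tgfbr3 against MEF and of Chd3, Fst, Pmepa1 and Tgfbi against NPC were lost without the trend. Counts over all probes moved more. For ciNPC against NPC, 991 probes passed, against 577 under quantile normalisation, 574 in the deposited table, 588 among probes above background on all 5 arrays, 340 without the trend and 1602 without p13 replicate 2. For p13 against p5, 296 passed (224 higher, 72 lower), against 3 (3 higher, 0 lower) under quantile normalisation and in the deposited table, 116 among probes above background on all 5 arrays, 102 with 1 probe per gene, 2191 with no limit on the fold and 0 without the trend (1934 at an unadjusted p under 0.05). The cause was not tested. The median of all probes between p13 and p5 was 0.12, and -0.05 under quantile normalisation; against MEF it was -0.09, and 0.04 with the percentile over detected probes. Leaving out p5 removes that comparison, and leaving out 1 p13 array leaves values without a test. No paired analysis was possible because only the p13 arrays carry replicate numbers. Acvr1c and the second Acvr1b probe were under background on most or all arrays and could not be ranked between cell types. The Acvr1c bounds given above concern the p5 array alone.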

Other observations

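The genes whose pattern over the 5 arrays was most like that of Acvr1b, among 11385 genes above background on all of them, were Cdkn2d, Mpc1 and Dtx4, by the Euclidean distance of log2 levels centred on their mean (0.100, 0.100 and 0.110). Cdkn2d, a cell-cycle inhibitor, was at 3.92 and 3.75 on p13, 3.58 on p5, 4.06 on NPC and 2.15 on MEF. Mpc1, a subunit of the mitochondrial pyruvate carrier, was at 4.91 and 4.66 on p13, 4.51 on p5, 5.06 on NPC and 3.01 on MEF. Dtx4, an E3 ubiquitin ligase of the Deltex family, was at 3.15 and 2.82 on p13, 2.69 on p5, 3.19 on NPC and 1.29 on MEF. For the brightest Gsk3b probe they were the ribosomal protein gene Rps15 (0.067), the zinc finger gene Klf16 (0.088) and the ribosomal protein gene Rpl13a (0.093). Rps15 was at 6.92 and 7.03 on p13, 6.79 on p5, 7.06 on NPC and 7.85 on MEF. For Acvr1c, which was above background on p5 alone, the nearest gene was Lhfpl5 at a distance of 1.80. Likeness over 5 arrays is a description.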
